A study of Mus musculus with 6 samples.

Results

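The 10 genes described here encode the machinery that takes a cell from G1 into S phase: the D cyclins Ccnd1, Ccnd2 and Ccnd3, their kinases Cdk4 and Cdk6, the E cyclins Ccne1 and Ccne2 with their kinase Cdk2, and the pocket proteins Rb1 and Rbl1. They were taken by symbol from the count tables of all 6 libraries, and all 10 symbols were found among the 23284 in each table. In 3 libraries of erythroblasts labelled null for Setd8, the enzyme that adds 1 methyl group to lysine 20 of histone H4, cyclin D2 was 2.77-fold and Rb1 4.95-fold higher than in 3 control libraries once the kind of sample title was allowed for, and Cdk4 was lower by 0.58 on the log2 scale. By edgeR, only cyclin D2 also passed with group as the only term and with a further term for Y-linked transcripts. With the title allowed for, cyclin D2, Rb1 and Cdk4 passed in 6, 5 and 1 of 6 fits without 1 library. For Ccnd1, Ccnd3, Ccne1, Ccne2, Cdk2 and Rbl1 the difference between null and control did not pass the test, and Cdk6 had almost no reads.

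D cyclins bind Cdk4 or Cdk6 in G1 and the complexes phosphorylate the pocket proteins, which otherwise hold E2F transcription factors in check. Released E2F raises transcription of genes for S phase, cyclin E among them, and cyclin E with Cdk2 phosphorylates the pocket proteins further. In the red cell lineage, cyclin D3 is known for setting the number of divisions before cells leave the cycle, and Rb1 for its part in the exit from the cycle during terminal maturation.

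The libraries hold polyadenylated RNA from C57BL/6 mouse embryos at E10.5, from live cells sorted as positive for Ter119, a red cell antigen, and CD71, the transferrin receptor. Fetal liver is the source in the sample labels, and fetal blood in the design text. Replicates are numbered in accession order and written as controls 1 to 3 and nulls 1 to 3. Control replicates 1 and 3 are labelled Setd8 +/+ EpoRCre, control replicate 2 Setd8 fl/fl EpoR WT and the 3 null libraries SETD8fl/fl EpoR Cre, so that Cre is present in 2 of the 3 controls and floxed alleles in the other. EpoR-Cre is Cre placed in the locus of the erythropoietin receptor, Epor, so the deletion is driven by a locus active in erythroid cells. The labels leave unsaid whether replicates are separate embryos. Controls 1 and 3 share a genotype label but held 792 and 0 reads of Y-linked transcripts, and control 2 has another label. The controls are thus not 1 sample measured again, while the spread of the nulls may be purely technical. The p-values rest on the spread in both groups.

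Gene counts summed to 7756940 to 21434719 per library. The titles of 3 libraries (control 3, null 2 and null 3, here the lettered set) carry a trailing letter and those of the other 3 (control 1, control 2 and null 1, the unlettered set) do not, and the 2 sets differ at many genes: 17.7% of 10512 tested genes were higher and 10.9% lower in the lettered set by edgeR's quasi-likelihood test. The labels do not say what the letter stands for. Y-linked transcripts were found in the 3 nulls and control 1 and were next to absent in controls 2 and 3. Xist, a transcript of female cells, had 5, 3913 and 2240 reads in controls 1 to 3 and 28, 189 and 3 in nulls 1 to 3. Read as embryo sex, these transcripts split unevenly between the groups, and genotype and sex cannot be fully told apart. Levels are given as CPM, edgeR's library-scaled count unit after TMM scaling, and null and control were compared in a fit that includes the title set, here set-adjusted, and again with group as the only term. Setd8 itself stood at 73.9, 74.7 and 203 CPM in controls 1, 2 and 3 and at 48.8, 100.1 and 96.2 in nulls 1 to 3, and its log2 level fell by 0.83 with the set as a term (SE 0.17, edgeR quasi-likelihood test, Benjamini-Hochberg-adjusted p = 0.00911; adjusted p = 0.702 with group alone). That call was lost without control 3 (log2 ratio -0.62, adjusted p = 0.134 by edgeR) and with a term for Y-linked transcripts (adjusted p = 0.234). The tables count whole genes, so reads from outside the deleted part are included. Erythroid markers were abundant in every library, with Alas2 at 2284 to 3012 CPM in the controls, and 2497 to 3055 in the nulls. Of 8 such markers 0 rose and 2 fell set-adjusted: Tfrc, which encodes the sorted antigen CD71, at 398 to 443 CPM in controls and 192 to 273 in nulls (edgeR adjusted p = 0.00363, and 0.184 with group alone), and the embryonic globin Hba-x (0.0434, and 0.59 with group alone). Slc4a1 and Epb4.2, of the red cell membrane, also lay lower in all nulls without passing (0.0678 and 0.0829). Over all tested genes 8.65% rose and 4.16% fell set-adjusted.

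Of the 10 genes, 9 had enough reads to be tested and Cdk6 did not. Set-adjusted, 2 of the 9 rose (Ccnd2 and Rb1) and 1 fell (Cdk4), where 8.65% of all tested genes rose and 4.16% fell. With group alone 1 rose (Ccnd2) and 0 fell by edgeR, against 1.14% and 0.00951% of all genes. In that fit 3 of the 9 had an unadjusted p under 0.05 in either direction, against 1641 of 10512 tested genes. DESeq2 with group alone called 2 higher and 0 lower, against 697 higher and 197 lower of all 10512 genes. The 3 nulls all lay above the 3 controls for Ccnd2 and Rb1 and below them for Ccnd1 and Cdk4, which is 2 of 9 in each direction, where 14.9% of all tested genes lay above and 9.16% below.

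**Figure D1:**
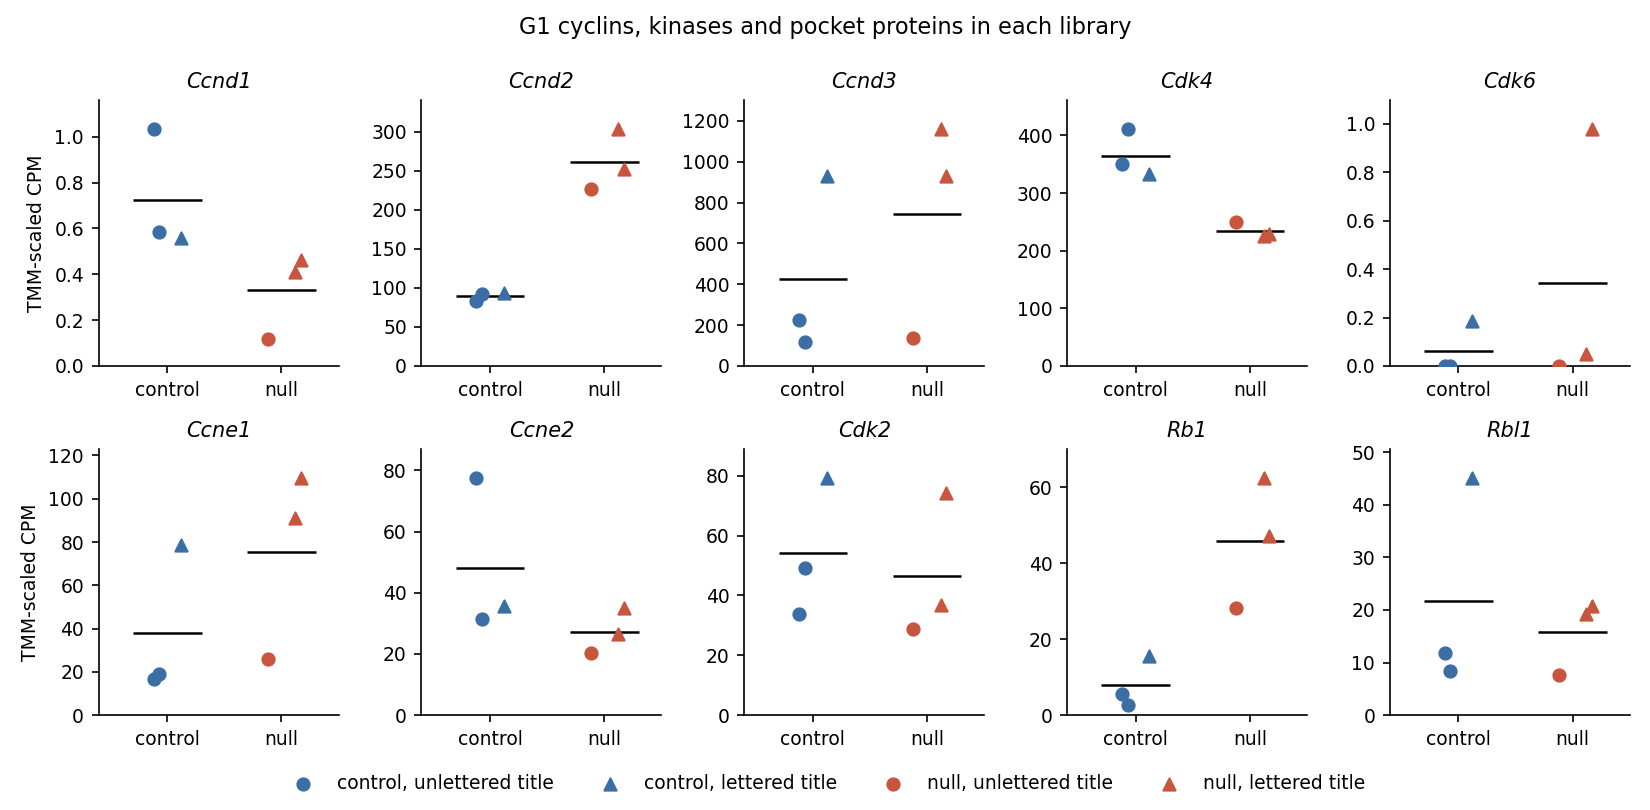
TMM-scaled CPM of each gene in the 6 libraries, 1 panel per gene with an axis from 0. Circles are libraries with unlettered titles and triangles those with lettered titles, blue is control and red is null, and bars are group means. The 3 null libraries sit above the 3 controls for Ccnd2 and Rb1 and below them for Cdk4 and Ccnd1, while Ccnd3 and Ccne1 split by title.

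Promoter sequences show which members carry an E2F word near their start. The RefSeq table (build GRCm38.p6) gave windows from 250 bases before to 50 after the start for 6 of the 10 genes, 7 windows in all because Ccnd3 has 2. Ccnd1, Ccnd2, Ccne2 and Rb1 had no entry. The words TTTCCCGC, TTTGGCGC, TTTCGCGC and TTTGCCGC, which are forms of the E2F consensus, were searched on both strands, and 2 of the 7 windows held 1, against 2.26% of 32851 such windows. The word TTTGAA, the cell cycle homology region bound by complexes with MuvB, was in 0 of 7 and in 17.9% of all windows. Shown 5′ to 3′ on the gene's strand are the windows of Rbl1 (chr2:157204485-157204784, minus strand) and Cdk2 (chr10:128705002-128705301, minus strand), which hold an E2F word, in capitals, and that of Cdk4 (chr10:127063285-127063584, plus strand), the kinase that fell, which holds none. Per the submitters' processing notes the series used mm9, so these coordinates are not those of the count tables.
Rbl1: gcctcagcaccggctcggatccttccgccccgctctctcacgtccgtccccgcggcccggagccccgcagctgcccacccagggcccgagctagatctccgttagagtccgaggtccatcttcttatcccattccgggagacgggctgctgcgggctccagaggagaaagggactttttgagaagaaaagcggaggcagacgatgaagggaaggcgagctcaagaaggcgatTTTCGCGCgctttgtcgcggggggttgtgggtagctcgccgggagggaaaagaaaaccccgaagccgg
Cdk2: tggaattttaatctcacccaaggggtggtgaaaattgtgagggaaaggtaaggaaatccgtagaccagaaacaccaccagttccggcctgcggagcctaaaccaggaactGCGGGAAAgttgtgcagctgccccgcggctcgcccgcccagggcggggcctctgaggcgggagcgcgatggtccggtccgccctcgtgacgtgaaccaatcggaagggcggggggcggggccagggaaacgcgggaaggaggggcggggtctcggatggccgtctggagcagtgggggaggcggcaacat
Cdk4: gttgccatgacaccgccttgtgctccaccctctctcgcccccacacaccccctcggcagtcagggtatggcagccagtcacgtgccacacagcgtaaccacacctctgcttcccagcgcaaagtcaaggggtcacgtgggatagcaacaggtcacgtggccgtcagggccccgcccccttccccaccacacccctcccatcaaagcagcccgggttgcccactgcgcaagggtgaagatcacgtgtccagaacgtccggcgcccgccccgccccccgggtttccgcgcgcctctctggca
In Rbl1 the word runs from 18 to 11 bases before the start and reads TTTCGCGC on the gene's strand. In Cdk2 it runs from 140 to 133 bases before the start and reads TTTCCCGC on the other strand. A match describes these letters and says nothing on whether a factor binds there.

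Among the D cyclins, Ccnd2 rose and the other members did not pass. Ccnd2 stood at 83.8, 91.9 and 93.4 CPM in controls 1, 2 and 3 and at 226, 304 and 252 CPM in nulls 1, 2 and 3. The 3 controls lay close together, the groups did not overlap, and the title sets did not separate this gene (log2 difference of lettered to unlettered 0.19, SE 0.16, edgeR quasi-likelihood test, Benjamini-Hochberg-adjusted p = 0.42). Set-adjusted, Ccnd2 had a null to control log2 ratio of 1.47 (SE 0.16, 95% interval 1.11 to 1.83, edgeR quasi-likelihood test, Benjamini-Hochberg-adjusted p = 0.000235), and with group alone it was 1.54 (SE 0.23, adjusted p = 0.0336). It was 1.37 within the unlettered and 1.57 within the lettered set. The set-adjusted call held in all 6 fits without 1 library, and with group alone it held only without null replicate 1, where adjusted p = 0.0491 (0.0643 to 0.196 in the others).

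Ccnd3 had the most reads of the D cyclins in 5 of the 6 libraries, null replicate 1 being the other, and differed between the title sets but not detectably between the genotypes. It stood at 226, 116 and 931 CPM in controls 1, 2 and 3 and at 135, 1162 and 931 in nulls 1, 2 and 3. All 3 lettered libraries lay far above the 3 unlettered ones, by 2.70 on the log2 scale (SE 0.26, edgeR quasi-likelihood test, Benjamini-Hochberg-adjusted p = 1.83e-05). Set-adjusted, the null to control log2 ratio was -0.08 (95% interval -0.63 to 0.48, adjusted p = 0.878 by edgeR). With group alone the ratio was 0.81, and adjusted p = 0.772. In the reference annotation, 14.8% of the exon length of Ccnd3 overlaps Bysl on the other strand, and the sources used here do not say whether counting used strand.

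Ccnd1 was close to absent. It had 7, 11 and 12 reads in controls 1, 2 and 3 and 2, 8 and 9 in nulls 1 to 3, which is 1.04, 0.585 and 0.557 CPM against 0.117, 0.410 and 0.465. The null libraries were all below the controls, yet at this depth 3 reads are worth 0.139 to 0.444 CPM, and the set-adjusted interval of the log2 ratio ran from -4.64 to 1.85, so a change of this gene was not detectable.

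The make-up of the D cyclin reads within a library does not depend on scaling between libraries. Ccnd2 supplied 26.9% of them in control replicate 1 (95% Wilson interval 25.1% to 28.9%), 44.1% in control replicate 2 (42.6% to 45.7%) and 62.6% in null replicate 1 (61.3% to 63.7%). In the lettered set the share was 9.12% in control replicate 3 (8.74% to 9.50%), 20.7% in null replicate 2 (20.3% to 21.2%) and 21.3% in null replicate 3 (20.8% to 21.8%). These intervals cover counting error only. The null share was therefore above that of its own controls in both sets, by 27.0 and 11.9 percentage points, while over all libraries the groups overlapped (26.7% ± 17.5 in controls and 34.9% ± 24.0 in null cells, SD, n = 3 each, exact permutation test, 2-sided, p = 0.7). With 3 against 3 libraries this test cannot go below 0.1.

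**Figure D2:**
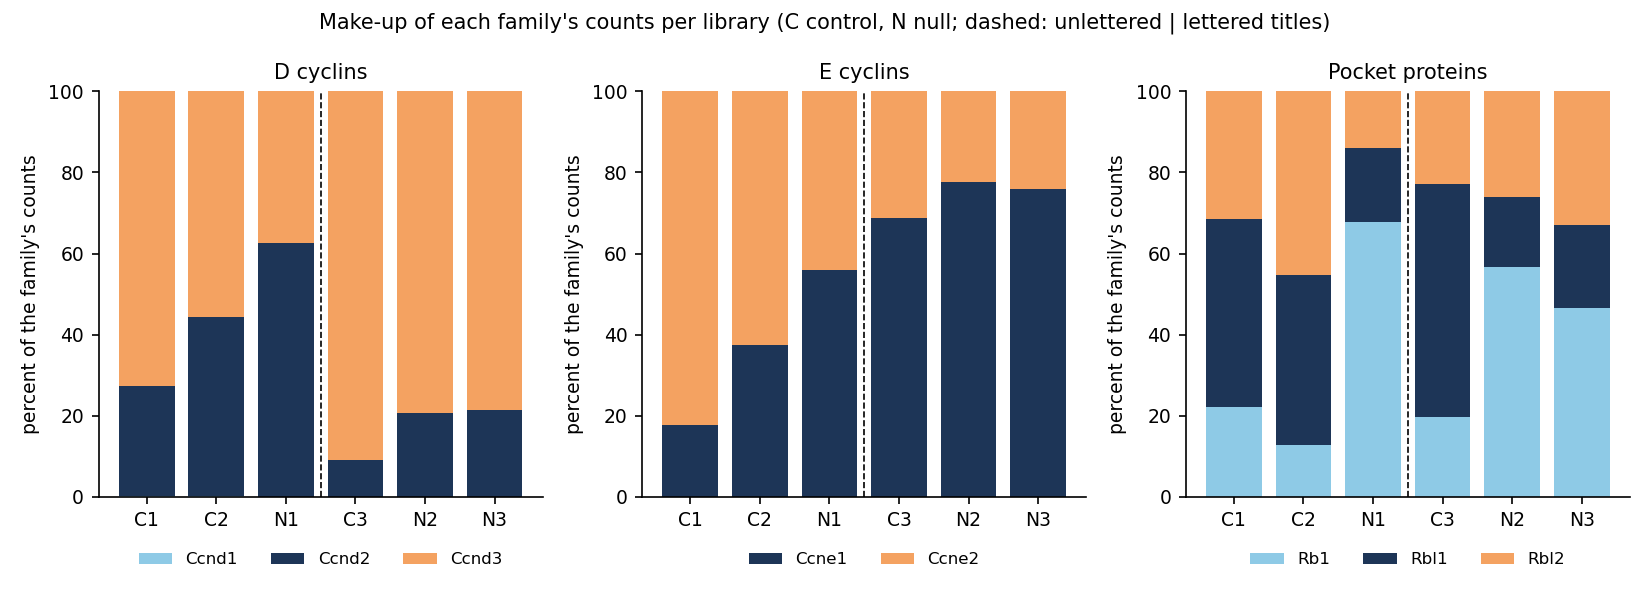
Percent of the reads of each family that each gene supplied, per library, with D cyclins, E cyclins and pocket proteins in separate panels and the dashed line between unlettered (left) and lettered titles (right). The Ccnd2 part is larger in null than in control libraries on each side of the line, and the Rb1 part of the pocket proteins is 46.5% to 67.9% in null and 12.8% to 22.1% in control libraries.

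Of the D cyclin kinases, Cdk4 carried nearly all reads and fell in null cells. Cdk4 stood at 350.2, 412 and 333 CPM in controls 1, 2 and 3 and at 249.5, 226 and 229 in nulls 1 to 3. The groups did not overlap, and the title sets did not part them (log2 difference -0.17, edgeR quasi-likelihood test, Benjamini-Hochberg-adjusted p = 0.455). Cdk4 fell by 0.58 in log2 level set-adjusted (SE 0.15, 95% interval -0.91 to -0.25, edgeR quasi-likelihood test, Benjamini-Hochberg-adjusted p = 0.0258), and the log2 ratios within the unlettered and lettered sets were -0.61 and -0.55. With group alone the log2 ratio was -0.64 and Cdk4 did not pass (adjusted p = 0.243 by edgeR). The call rests on all libraries but null replicate 3: adjusted p was 0.0515, 0.0947 and 0.0756 without control replicates 1, 2 and 3, 0.164 and 0.0737 without null replicates 1 and 2, and 0.0222 without null replicate 3, all by edgeR. With a further term for Y-linked transcripts, which were found in the 3 nulls and control 1 and next to absent in controls 2 and 3, neither Cdk4 (adjusted p = 0.403) nor Rb1 (0.141) passed by edgeR.

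The annotation places 31.2% of the exon length of Cdk4 over Tspan31, a tetraspanin gene on the other strand, so part of the reads of this pair cannot be told apart without a strand setting. Tspan31 moved the other way. It stood at 38.5, 37.3 and 40.2 CPM in controls 1, 2 and 3 and at 86.9, 62.7 and 67.2 in nulls 1 to 3, and rose set-adjusted by 0.94 on the log2 scale (SE 0.20, edgeR quasi-likelihood test, Benjamini-Hochberg-adjusted p = 0.0106, and 0.141 with group alone). The sum of both genes was 404 ± 40.3 CPM in the controls and 307 ± 25.8 in nulls (SD, n = 3 each). The controls lay at 373 to 449 and the null libraries at 288 to 336, so the sum was lower in every null library. Reads set aside as ambiguous are in neither count, so the sum does not settle what the overlap contributes.

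Cdk6, the other kinase of the D cyclins, had 0, 0 and 4 reads in controls 1, 2 and 3 and 0, 1 and 19 in nulls 1, 2 and 3. The 3 libraries with unlettered titles had none, which allows up to 0.444 CPM in control replicate 1, 0.160 in control replicate 2 and 0.175 in null replicate 1. Null replicate 3 held 19 of the 24 reads. As a share of Cdk4 and Cdk6 reads, Cdk6 differed by 0.131 percentage points between the groups (exact permutation test, 2-sided, p = 0.7), and its level was not tested.

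The E cyclins, partners of Cdk2 at the entry into S phase, had ratios of opposite sign, and neither passed. Ccne1 stood at 16.6, 18.9 and 78.5 CPM in controls 1, 2 and 3 and at 25.8, 90.9 and 109.7 in nulls 1 to 3. Each null library lay above the controls of its own title set, and the sets themselves differed by 2.05 on the log2 scale (SE 0.20, edgeR quasi-likelihood test, Benjamini-Hochberg-adjusted p = 1.65e-05). The set-adjusted log2 ratio was 0.44 (95% interval 0.01 to 0.87, adjusted p = 0.171 by edgeR). Ccne2 stood at 77.5, 31.5 and 35.6 CPM in controls 1 to 3, against 20.2, 26.4 and 34.9 in null cells, with control replicate 1, the shallowest library, far above the rest. Its set-adjusted log2 ratio was -0.81 (95% interval -1.71 to 0.08, adjusted p = 0.222 by edgeR), and -1.44 to -0.22 without 1 library (-0.42 without control 1, -1.44 without control 3 and -0.22 without null 1). Ccne2 did pass without a filter on low counts (adjusted p = 0.0401 by edgeR) and with the term for Y-linked transcripts (log2 ratio -1.81, adjusted p = 0.0386 by edgeR). Control 1, where Ccne2 was highest, is the only control with Y-linked transcripts, so the latter fit leans on that library. Ccne1 supplied 41.3% ± 25.8 of the E cyclin reads in controls and 69.8% ± 12.0 in null cells (SD, n = 3 each, exact permutation test, 2-sided, p = 0.2), 28.5 percentage points more in null cells of the unlettered and 7.89 more in those of the lettered set.

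Cdk2 stood at 33.9, 49.0 and 79.3 CPM in controls 1, 2 and 3 and at 28.7, 36.9 and 74.2 in nulls 1, 2 and 3. Each null library was below the controls of its own set, but null replicate 3 lay above 2 of the 3 controls. The set-adjusted log2 ratio was -0.52 (95% interval -1.14 to 0.10, edgeR quasi-likelihood test, Benjamini-Hochberg-adjusted p = 0.26), and Cdk2 did not pass.

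Of the pocket proteins, Rb1 rose in null cells and Rbl1 did not pass. Rb1, the retinoblastoma protein, stood at 5.62, 2.55 and 15.6 CPM in controls 1, 2 and 3, from 38, 48 and 335 reads, and at 28.2, 62.6 and 47.3 in nulls 1 to 3, from 484, 1220 and 916 reads. The lowest null library was above the highest control although the title sets differed as well (log2 difference 1.44, SE 0.35, edgeR quasi-likelihood test, Benjamini-Hochberg-adjusted p = 0.00823). Set-adjusted, Rb1 rose by a log2 ratio of 2.31 (SE 0.36, 95% interval 1.53 to 3.09, edgeR quasi-likelihood test, Benjamini-Hochberg-adjusted p = 0.00182), and the ratio was 2.86 within the unlettered and 1.80 within the lettered set. With group alone the ratio was 2.53 and did not pass (adjusted p = 0.141 by edgeR, and 0.00621 by DESeq2). Without null replicate 1, the only null library of its set, the set-adjusted ratio was 1.81 and adjusted p = 0.117 by edgeR, and in the other 5 fits without 1 library Rb1 passed. With group alone it passed without control 3 (log2 ratio 3.45, adjusted p = 0.0453 by edgeR). An overlap with Rcbtb2 on the other strand takes 2.26% of the exon length of Rb1.

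Rbl1, known as p107, stood at 11.8, 8.35 and 45.1 CPM in controls 1, 2 and 3 and at 7.59, 19.2 and 20.8 in nulls 1 to 3. Each null library was below the controls of its own title set, and the groups overlapped over all libraries. The set-adjusted log2 ratio was -0.80 (SE 0.31, 95% interval -1.48 to -0.13, edgeR quasi-likelihood test, Benjamini-Hochberg-adjusted p = 0.115), and -0.39 and -1.17 within the sets. It was -0.42 without control 3 and -1.18 without null 1. The related Rbl2, or p130, stood at 7.99, 9.04 and 18.0 CPM in controls 1 to 3, against 5.78, 28.8 and 33.6 in nulls 1 to 3, with ratios of opposite sign within the sets (-0.55 and 0.79).

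Among the reads of Rb1, Rbl1 and Rbl2 together, Rb1 supplied 22.1% in control replicate 1 (95% Wilson interval 16.5% to 28.9%), 12.8% in control replicate 2 (9.79% to 16.6%) and 19.8% in control replicate 3 (17.9% to 21.7%). In null replicates 1, 2 and 3 it supplied 67.9% (64.4% to 71.2%), 56.6% (54.5% to 58.7%) and 46.5% (44.3% to 48.7%). The Rbl1 share was 48.6% ± 7.96 in controls and 18.7% ± 1.60 in null cells (SD, n = 3 each). Both shares separated the groups, at p = 0.1 by the exact permutation test, 2-sided, the smallest value that 3 against 3 allows, but they have 1 denominator, in which Rb1 rose, and are not separate results. Of the reads of Rbl1 and Rbl2 alone, a share examined after seeing the data, Rbl1 supplied 59.7%, 48.0% and 71.5% in controls 1, 2 and 3 and 56.8%, 40.0% and 38.2% in nulls 1, 2 and 3, and the groups overlapped. In each title set the Rbl1 share of all 3 was lower in null cells, by differences of -26.0 and -38.5 percentage points.

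Markers of other cell types moved with the groups. The summed level of 8 macrophage markers was 1.81 to 7.38 CPM in the controls and 27.7 to 64.6 in nulls, with Vcam1 at 0 in all null libraries and Emr1 at 0 in all controls and 0 to 2.58 in nulls. Summed endothelial markers (7 genes) were 3.72 to 11.6 and 23.5 to 33.2 CPM, with Emcn at 0 in all 6 libraries and Cdh5 at 0 to 0.0516. Summed megakaryocyte markers (6 genes) were 14.3 to 35.6 and 42.0 to 81.6 CPM, with Itga2b at 7.25 to 20.9 and 36.5 to 67.0, Gp9 below the controls in every null library and not called (log2 ratio -0.37, adjusted p = 0.743 by edgeR) and Ppbp at 0 in the nulls. Progenitor markers (6 genes) summed to 1.63 to 3.58 and 10.6 to 75.6 CPM, with Mpo at 1.03 to 61.2 in nulls and Kit overlapping between the groups, and neural or epithelial markers (7 genes) 0.888 to 3.62 and 9.14 to 23.5. Mesenchymal markers (7 genes) did not separate the groups, at 0.148 to 3.16 and 0.155 to 3.18 CPM. In the same order of lists, 3 macrophage, 2 endothelial, 1 megakaryocyte, 1 progenitor, 1 neural or epithelial and 0 mesenchymal markers rose set-adjusted and 0 fell. Tested were 5, 3, 5, 3, 2 and 1 of them, and of all tested genes 8.65% rose and 4.16% fell. Of the markers that rose, only Cd68 passed with group alone (adjusted p = 0.0330 by edgeR). The rest had an adjusted p of 0.107 (Itga2b) to 0.325 (C1qb) in that edgeR fit. The part of other cells in the levels of Ccnd2 and Rb1 was not tested, and in sorted bulk RNA a change in the share of cells and a change in RNA per cell cannot be told apart. Globin genes took 37.1% to 45.2% of the counts in controls and 26.5% to 39.9% in null cells, and with these genes left out before scaling Ccnd2, Cdk4 and Rb1 had log2 ratios of 1.42, -0.63 and 2.25 and passed (edgeR quasi-likelihood, adjusted p = 0.000396, 0.0205 and 0.00294).

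**Figure D3:**
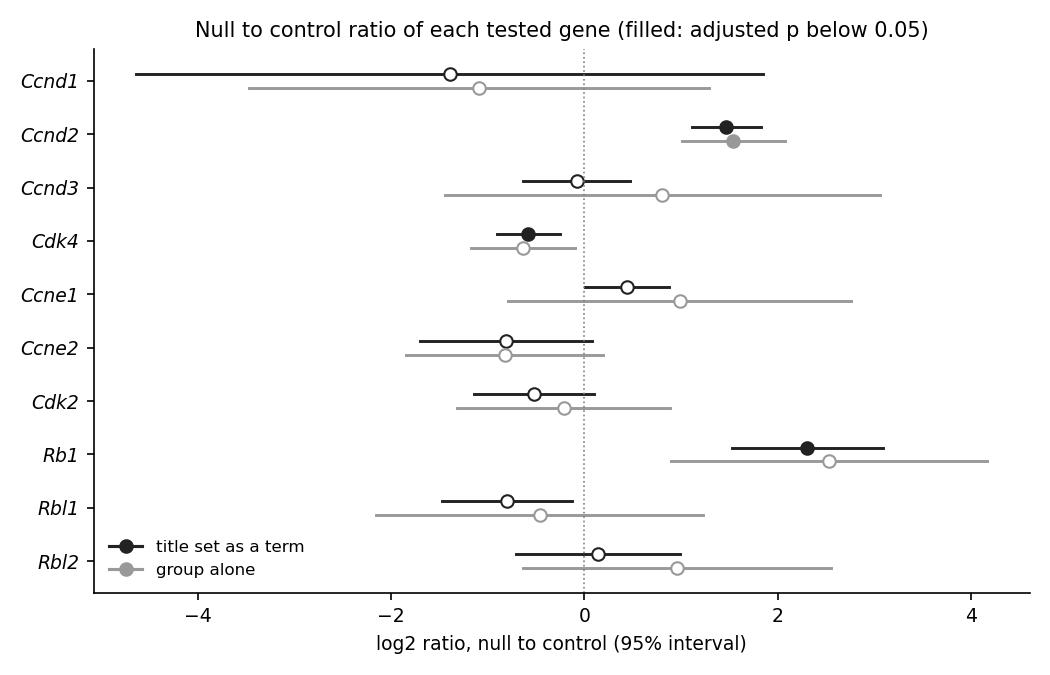
Log2 ratio of null to control with 95% intervals for the 9 tested genes and Rbl2, with the title set as a term (black) and with group alone (grey). Filled points have an adjusted p below 0.05: Ccnd2 in both fits, and Cdk4 and Rb1 only with the title set as a term.

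The ratios of the 2 title sets were compared gene by gene with a term for their difference. No member passed (0 of 9 by edgeR, against 0.00951% of all tested genes called), and the smallest adjusted p was 0.764, for Ccne2. At an unadjusted p under 0.05 there were 0 of the 9, against 758 of 10512 tested genes. Between the sets themselves, 5 of the 9 members were higher in the lettered set (Ccnd3, Ccne1, Cdk2, Rb1 and Rbl1) and 0 lower, against the 17.7% and 10.9% of all genes given above. The ratio had 1 sign in both sets for 8 of the 9 genes, against 7223 of 10512 tested genes, and Ccnd3 was the exception. This comparison has 2 residual degrees of freedom, so a difference between sets of the size seen for Rb1 (2.86 and 1.80) may go without a call.

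**Figure D4:**
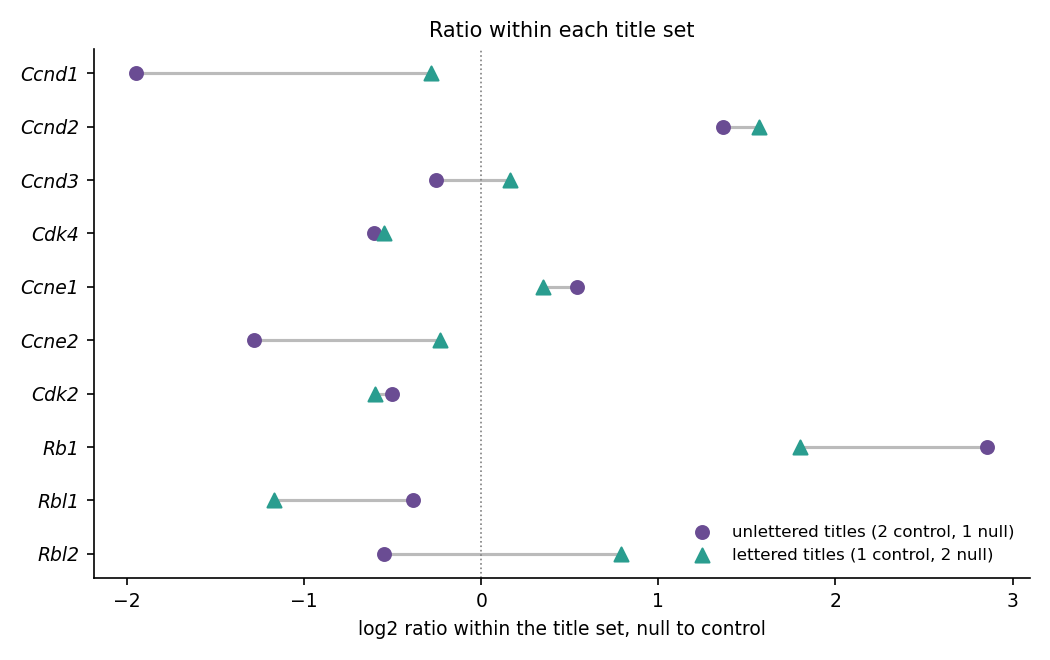
Difference of mean log2 CPM between null and control within the unlettered (circles) and the lettered libraries (triangles), for the 9 tested genes and Rbl2. Ccnd2 (1.37 and 1.57) and Cdk4 (-0.61 and -0.55) lie close together in the 2 sets, while Ccnd3 and Rbl2 fall on both sides of 0.

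Per exon length the members span a wide range of abundance, given here as CPM per kilobase of annotated exon (mean ± SD over the 3 controls). Cdk4 at 178 ± 20.3 and Ccnd3 at 173 ± 181 were the most abundant and did not differ beyond their spread. Cdk2 at 22.4 ± 9.59, Ccne1 at 19.0 ± 17.6, Ccne2 at 15.1 ± 7.96 and Ccnd2 at 13.4 ± 0.775 followed, each overlapping in range with its neighbours in this order. Rbl1 at 4.48 ± 4.18 and Rb1 at 1.70 ± 1.46 were lower and overlapped, and Ccnd1 at 0.194 ± 0.0718 and Cdk6 at 0.00537 ± 0.00931 were last. In null cells Ccnd2 stood at 38.9 ± 5.89, next to Ccne1 at 37.7 ± 22.0, and Rb1 at 9.89 ± 3.69 was above Ccne2 at 8.49 ± 2.31 within their spread. Lengths come from GENCODE M21 and not from the annotation the authors counted on, so the scale is approximate.

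Around these genes, 77 others of the pathway were examined, and 72 were tested. Set-adjusted, 2 rose and 10 fell by edgeR's quasi-likelihood test, with a median log2 ratio of -0.32 (0.04 for the whole table) and the backgrounds of 8.65% and 4.16% given above. With group alone 1 rose and 0 fell by edgeR, against 1.14% and 0.00951% of all genes. DESeq2 with group alone gave 1 and 4, against 697 and 197 of all 10512 genes. In the edgeR fit with group alone 11 of the 72 had an unadjusted p under 0.05, against 1641 of 10512 tested genes, a similar share. Set-adjusted, 6, 8 and 4 fell without control 1, 2 or 3, where 223, 213 and 180 of all tested genes fell. Without null 1, 2 or 3 there were 0, 6 and 21 that fell, where 40, 235 and 734 of all tested genes fell. With the term for Y-linked transcripts 1 rose and 1 fell, against 161 and 62 of all 10512 genes.

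Of 7 inhibitors of cyclin-dependent kinases, 5 were tested and 1 rose set-adjusted, where 8.65% of all tested genes rose and 4.16% fell. Cdkn1a, or p21, a p53 target that binds cyclin and kinase complexes, stood at 11.7, 5.32 and 12.0 CPM in controls 1 to 3, against 728, 926 and 549 in nulls 1 to 3 (set-adjusted log2 ratio 6.21, SE 0.35, edgeR quasi-likelihood test, Benjamini-Hochberg-adjusted p = 1.3e-05, and 0.00667 with group alone). Of 5 genes that activate the kinases, 1 rose: Cdk7, the kinase that phosphorylates the activation loop of the others, from 52.1 ± 9.20 to 75.8 ± 11.7 CPM (SD, n = 3 each; log2 ratio 0.68, edgeR quasi-likelihood, adjusted p = 0.0343). It passed in no fit without 1 library.

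Among 11 genes of cyclin and inhibitor degradation, 0 rose and 1 fell set-adjusted, where 8.65% of all tested genes rose and 4.16% fell. Skp2, the F-box protein that marks p27 for destruction, went from 16.7 ± 5.24 to 6.81 ± 1.35 CPM (SD, n = 3 each; log2 ratio -1.43, SE 0.36, edgeR quasi-likelihood, adjusted p = 0.0254), and passed in 1 of 6 fits without 1 library. All 10 E2F and DP genes were tested and all had a set-adjusted log2 ratio below 0, as did 5004 of 10512 tested genes. With group alone E2f6 (0.52) and Tfdp2 (0.05) lay above 0, and 0 of the 10 passed by edgeR. Set-adjusted, DESeq2 called 4 lower and 0 higher, against 882 and 1262 of all 10512 genes. By edgeR 1 fell: Tfdp1, the DNA-binding partner of E2F (log2 ratio -0.74, SE 0.20, edgeR quasi-likelihood, adjusted p = 0.0284). Tfdp1 overlapped between groups, at 107.7 ± 49.7 and 94.0 ± 48.6 CPM, and its fall was relative to the controls of each set. It passed in 2 of 6 fits without 1 library, and its log2 ratio was -0.44 without null 1 (adjusted p = 0.312 by edgeR). Of 7 genes of MuvB and its partners 0 passed by edgeR (0 higher and 2 lower by DESeq2). At an unadjusted p under 0.05 there were 2, against 2925 of 10512 tested genes. Mybl2, which joins MuvB in S phase, had the lowest p (log2 ratio -0.89, edgeR quasi-likelihood, adjusted p = 0.0798).

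Of 21 E2F targets that act at the start of S phase, 6 fell and 0 rose set-adjusted, where 4.16% of all tested genes fell and 8.65% rose. Those that fell were the helicase subunits Mcm2, Mcm3, Mcm4 and Mcm6, the polymerase subunit Pola1 and Uhrf1, a factor of maintenance DNA methylation. With group alone 0 of the 21 passed by edgeR. DESeq2 with group alone called 0 higher and 3 lower, against 697 and 197 of all 10512 genes. Mcm4 stood at 268 ± 39.0 CPM in the controls, against 130 ± 22.9 in nulls (SD, n = 3 each; log2 ratio -0.93, SE 0.17, edgeR quasi-likelihood, adjusted p = 0.00423). Uhrf1 stood at 256 ± 55.9 and 113 ± 31.9 CPM (log2 ratio -1.01, adjusted p = 0.00561 by edgeR), and Mcm2 at 375 ± 137 and 248 ± 95.4 CPM (log2 ratio -0.90, adjusted p = 0.00594 by edgeR). Without null 1 none of these 3 passed (adjusted p = 0.0721, 0.0929 and 0.0919 by edgeR), and Uhrf1 did not pass without control 3 (0.0518). Every null library lay below every control for 9 of the 21, against 9.16% of all genes. Of 4 tested genes among the other cyclins, Cdk1 and Rbl2, 0 passed set-adjusted by edgeR. DESeq2 called 0 higher and 1 lower, against 1262 and 882 of all 10512 genes. At an unadjusted p under 0.05 by edgeR there was 1, against 2925 of 10512 tested genes. Ccna2 was lowest in p (log2 ratio -0.84, edgeR quasi-likelihood, adjusted p = 0.0836).

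Of 11 genes of signals upstream of the D cyclins, 9 were tested. Set-adjusted, 0 rose and 2 fell, where 8.65% of all tested genes rose and 4.16% fell. With group alone 0 of the 9 passed by edgeR. The kinase Jak2 had 43.4, 36.9 and 57.8 CPM in controls 1, 2 and 3 and 19.6, 40.6 and 28.2 in nulls 1, 2 and 3 (log2 ratio -0.89, edgeR quasi-likelihood, adjusted p = 0.0372). Epor, the receptor of erythropoietin, stood at 52.2, 117.6 and 158 CPM in controls 1, 2 and 3 and at 34.4, 91.2 and 84.4 in nulls 1 to 3 (log2 ratio -1.08, edgeR quasi-likelihood, adjusted p = 0.0313). Of the 6 fits without 1 library, Jak2 passed in 2 (not without control 1, 2 or 3 or null 1) and Epor in 3 (not without control 3, null 1 or null 2). The 3 null libraries and control replicates 1 and 3 carry Cre at this locus and control replicate 2 does not.

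**Figure D5:**
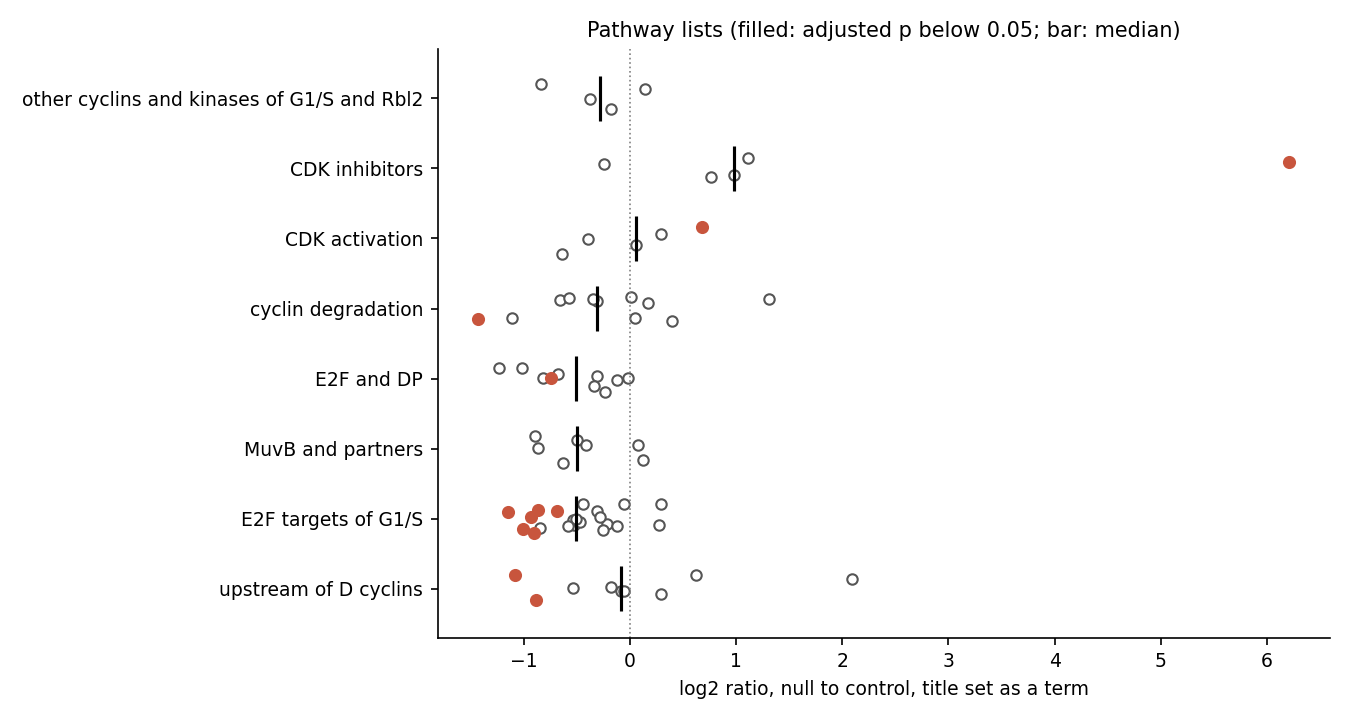
Set-adjusted log2 ratio of null to control for the tested genes of each pathway list, 1 point per gene, with the list's median as a bar and genes of adjusted p below 0.05 filled. The point at 6.21 is Cdkn1a, and 6 of the 10 genes that fell belong to the E2F targets.

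By likeness of their levels over the 6 libraries, measured as the root mean square distance of centred log2 CPM and given as a description, the genes nearest to Ccnd2 were Rab40c (distance 0.0459), Ubap1 (0.0973) and Aldh7a1 (0.103). Nearest to Cdk4 were Znhit6 (0.0459), Nxf1 (0.0579) and Cltc (0.0622). Nearest to Rb1 were Glt28d2 (0.166), Srxn1 (0.194) and Slc16a3 (0.224). No other member came as near: the closest was Ccne1 for Ccnd2 (0.916), Ccne2 for Cdk4 (0.526) and Ccnd2 for Rb1 (0.999).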

How the data were processed

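RNA was measured in 6 libraries, 3 control and 3 Setd8 null, grouped by the genotype labels. The authors deposited 1 table of raw read counts per gene symbol for each library. Per the submitters' processing notes, the series used FastQC, Trimmomatic 0.32, TopHat2 2.1.0, HTSeq 0.6.1, edgeR and build mm9. The sources used here give neither their order nor the strand setting. The 3 unlettered tables held 25 symbols turned into dates, which were mapped back, and summary lines that name no gene, which were left out. Of the table total, 42.9% in control 1, 7.72% in control 2 and 6.07% in null 1 was assigned to no feature. Another 22.5% to 32.4% had no unique alignment and 0.657% to 2.35% was ambiguous. Same-group libraries were no duplicates (chi-square per degree of freedom 21.9 to 369.1).

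Counts were tested with edgeR 4.0.16 in R 4.3.3: filterByExpr, TMM scaling, robust glmQLFit and the 2-sided glmQLFTest; p-values were adjusted by Benjamini-Hochberg over 10512 genes, threshold 0.05. The terms were title set and group (3 residual degrees of freedom), group alone (4), and set, group and their product (2). Within-set ratios use log2 CPM with a prior count of 2. DESeq2 1.42.0, RLE scaling, no filter, no globin genes, a term for Y-linked transcripts and leaving out each library were the alternatives. Named were the members, Setd8, Cdkn1a, Rbl2, up to 3 genes of lowest p that passed per pathway list (or the 1 of lowest p), and the 3 nearest genes of each member that passed; Mcm3, Mcm6 and Pola1, the genes that overlap members and the markers were named after their values were seen. The members and lists were chosen with earlier results of these data known. The symbol Adgre1 was found under its older name Emr1 alone.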

Additional observations from a re-analysis of the deposited data

How the results depend on the processing

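No paired analysis was possible because the labels number no replicates across the groups. Of the members, Ccnd2 passed set-adjusted under every alternative run, with log2 ratios of 1.34 to 1.57. Cdk4 and Rb1 passed under RLE scaling, DESeq2, no filter and no globin genes, and not with Y-linked transcripts as a further term (found in the 3 nulls and control 1), where Rb1 had a log2 ratio of 1.94 (edgeR adjusted p = 0.141) and Cdk4 of -0.44 (0.403). That term left 1 member higher. Without a filter 2 members fell, the added one being Ccne2 (-0.85). Without 1 library, 1 to 2 members rose and 0 to 1 fell set-adjusted, and with group alone 0 to 1 rose. DESeq2 gave 2 higher with group alone, against 697 of all 10512 genes. Of the pathway genes, 1 rose in each fit without 1 library, without a filter or with the Y-linked term. They fell in number 16 with RLE scaling, 25 with DESeq2, 23 without a filter, 16 without globin genes, 1 with the Y-linked term and 0 to 21 without 1 library. Over all tested genes, calls set-adjusted went from 909 higher and 437 lower to 161 and 62 with the Y-linked term. Lower calls over all genes numbered 520 with RLE scaling, 882 with DESeq2, 723 of 19008 without a filter and 542 without globin genes. Without 1 library, 162 to 869 of all tested genes were higher and 40 to 734 lower, and without a filter 1139 were higher. Dropping filters moved the median log2 ratio of all genes from 0.04 to 0.20.

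Without 1 library, 7 log2 ratios changed sign. Set-adjusted, that of Ccnd3 ran from -0.35 to 0.17 (0.17 without control 1, 0.16 without null 1) and that of Rbl2 from -0.58 to 0.79 (-0.58 without control 3, -0.08 without null 3). With group alone, Cdk2 ran from -0.81 to 0.10 (0.03 without null 1), Rbl1 from -0.86 to 0.58, Setd8 from -0.78 to 0.066, Ccna2 from -0.57 to 0.62 (0.29 without null 1) and Tfdp1 from -0.54 to 0.17 (0.17 without null 1 or control 3), and the first 4 were highest without control 3. The difference in Ccnd2 share, 8.12 percentage points over all libraries, was -5.72 to 16.8 without 1 library, including -0.685 without control 3. That of the Cdk6 share, 0.131, was -0.00725 to 0.206 without 1 library and 0 in the unlettered set. Set-adjusted fits without null replicate 1 or control replicate 3 compare the groups in 1 set only. The cause of these shifts was not tested. Leaving Rb1 out of the denominator, an alternative chosen after seeing the data, moved the difference in Rbl1 share from -29.9 to -14.8 percentage points. Depth limits Ccnd1, with 2 to 12 reads per library, and Cdk6, with 0 to 19.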
